A study of Mus musculus with 7 samples.

Results

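Antigen presentation by MHC class II was examined through 10 genes of the deposited brown fat count table, which holds 55487 genes in all. The genes were chosen by name: H2-Aa, H2-Ab1, H2-Eb1, Cd74, H2-DMa, H2-DMb1, H2-DMb2, H2-Oa, H2-Ob and Ciita. All 10 were found, each under a single gene identifier, and 8 had enough counts to be tested.

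The 7 RNA libraries came from the brown fat of NOD/ShiLtJ mice, an inbred strain prone to autoimmune diabetes. The CB-100 group had 4 libraries and the sham group, given KRBH buffer, had 3. CB-100 is the fraction above 100 kDa of buffer conditioned by brown adipocytes (named imBAT in the labels), and 1.5 mg per kg of body weight was injected under the skin for 7 days. The mice had a blood glucose of 190 to 230 mg/dL, and tissue was taken 2 to 8 weeks after the injections, with no week, age or sex given per mouse. The labels repeat the CB-100 protocol for the sham samples and give them no schedule of their own. All CB-100 titles also contain nd and all sham titles d, 2 codes with no explanation in the labels, and what they mark cannot be told apart from the injection. The titles carry a different animal code for each library, and nothing else in the labels says that the replicates are separate mice, so p-values here cover only the variation among these libraries. The question named in the series title is what large proteins secreted by brown adipocytes do to brown fat in this strain.

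Library totals ran from 10815073 to 28528421 counts. By Xist and Y-chromosome genes, replicate 3 of either group was male and the other 5 libraries female. The adipocyte genes Adipoq, which encodes adiponectin, and Ucp1, the uncoupling protein of brown fat, were present in each of the 7 libraries. Skeletal muscle genes were summed over 7 markers in CPM (read counts normalised to library size, here with TMM factors). The sum was 224, 294, 1659 and 314 CPM in CB-100 replicates 1 to 4. In sham replicates 1 to 3 it was 643, 1452 and 1165 CPM. The endothelial genes Tie1 and Emcn gave log2 changes of 0.57 and 1.13 and the muscle genes Mylpf and Actn3 gave -1.11 and -1.19, with 0 of 6 and 0 of 7 markers called by edgeR, DESeq2 or limma voom and 1 and 0 at an unadjusted p under 0.05 in edgeR. Emcn was 61.0 CPM in CB-100 replicate 4 and 13.7 to 19.4 CPM in CB-100 replicates 1 to 3, against 11.3 to 13.8 CPM in sham. Adipoq averaged 366 CPM over the CB-100 libraries, against 690 CPM over the sham libraries (edgeR, adjusted p = 0.0512, with a call by DESeq2 and limma voom). Ucp1 varied widely, from 450 to 2237 CPM in CB-100 and from 46.1 to 875 CPM in sham (log2 fold change 1.99, edgeR, adjusted p = 0.262). These are bulk tissue samples, in which a change in the number of cells of a type and a change in RNA per cell cannot be told apart.

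MHC class II molecules display peptides from taken-up proteins to CD4+ T cells, and dendritic cells, B cells and macrophages are the cells best known for making them. An alpha and a beta chain pair in the endoplasmic reticulum with the invariant chain, Cd74, which fills the peptide groove, and H2-DM later exchanges the last piece of the invariant chain for peptides while H2-O restrains H2-DM. Ciita, the class II transactivator, does not bind DNA itself but docks on factors that hold the X and Y boxes of class II promoters, and it is the main switch of these genes. In NOD mice the class II molecule I-A, made by H2-Aa and H2-Ab1, is the strain's major inherited risk for diabetes, and no I-E molecule is made because the alpha chain of H2-Ea is missing.

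The X and Y boxes are printed here because they are the sites through which Ciita acts on the other genes. RefSeq promoter windows of GRCm38.p6, each from 250 bases before to 50 after a gene's start, were matched by symbol for 7 of the 10 genes. They are of the C57BL/6J reference, and the NOD sequence may differ. Both strands were searched for the X box core GNAAC followed, 18 to 30 bases later, by the Y box core GATTGG, a pattern chosen with these sequences in view. It was found in 5 of the 7 genes, which had 8 windows, each time on the gene's own strand. Of 32851 promoter windows of all genes, 0.746% held it on either strand and 0.3775% on the gene's own strand. Capitals mark the cores.
H2-Aa: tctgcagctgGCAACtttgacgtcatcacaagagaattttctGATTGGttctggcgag
H2-Eb1: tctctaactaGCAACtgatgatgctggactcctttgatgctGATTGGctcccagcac
H2-DMb1: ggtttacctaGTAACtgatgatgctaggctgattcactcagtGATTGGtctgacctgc
H2-Oa: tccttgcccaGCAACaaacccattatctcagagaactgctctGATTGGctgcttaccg
H2-Ob: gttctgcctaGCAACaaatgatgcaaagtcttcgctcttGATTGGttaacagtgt

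The H2-Aa stretch is on the minus strand at chr17:34287857-34287914. The others are on the plus strand, H2-Eb1 at chr17:34305766-34305822, H2-DMb1 at chr17:34153087-34153144, H2-Oa at chr17:34092293-34092350 and H2-Ob at chr17:34238808-34238862. The spacing of the cores was similar across the 5 genes, with 27 bases between them in H2-Aa, H2-DMb1 and H2-Oa, 26 in H2-Eb1 and 24 in H2-Ob. The X core lay 81 bases before the start in H2-Aa, 91 in H2-Eb1, 94 in H2-DMb1, 76 in H2-Oa and 87 in H2-Ob. The windows of H2-DMa and H2-DMb2 did not hold these letters.

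Ciita rose 2.90-fold in the brown fat of CB-100 mice and was the only class II gene of the 8 tested that passed, while the chains it controls had smaller positive estimates that did not pass. Of the 8, 1 rose, 0 fell and 7 did not pass edgeR's quasi-likelihood test at a Benjamini-Hochberg adjusted p of 0.05 over 16823 genes. The background was 3.7% of all tested genes called in either direction, 1.42% called higher and 2.28% called lower. All 8 estimates were above 0, against 52.7% of all tested genes, with a median log2 change of 0.52 against 0.03 over all tested genes. These 8 genes are not independent of each other, since most of them vary together between libraries. A shared sign was not particular to class II. All 6 endothelial markers were above 0 (median 0.59), as were all 5 tested neighbours in the class II region (0.31). Summed, the 6 endothelial markers were at 1532 CPM in CB-100 replicate 4. In CB-100 replicates 1 to 3 that sum was 708 to 811 CPM, within the sham range of 569 to 896 CPM. All 7 skeletal muscle markers were below 0 (median -0.86), and the other lists examined held estimates of both signs.

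Ciita lies on chromosome 16, 10480059 to 10528418, on the plus strand of GRCm38. Its level was 5.44, 7.67, 4.24 and 4.93 CPM in CB-100 replicates 1 to 4, and 1.56, 1.65 and 2.49 CPM in sham replicates 1 to 3. Each CB-100 library was above each sham library, and CB-100 replicate 2 was the highest of all. The means were 5.57 ± 1.48 CPM for CB-100 and 1.90 ± 0.513 CPM for sham (mean ± SD, n = 4 and 3). The log2 fold change was 1.54 (SE 0.30, edgeR, adjusted p = 0.0351). These levels rest on 59 to 106 counts per CB-100 library and 24 to 53 counts per sham library.

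The call for Ciita rests on the full set of libraries, while its direction does not. It was kept without CB-100 replicate 4 (edgeR, adjusted p = 0.0384) and lost without any other single library, where edgeR gave an adjusted p of 0.0506 to 0.0754 when 1 of CB-100 replicates 1 to 3 was missing and of 0.0797 to 0.120 when 1 sham replicate was missing. The background of calls also depended on the library: leaving out CB-100 replicates 1, 2, 3 and 4 called 0.583%, 0.145%, 1.12% and 3.67% of tested genes, and leaving out sham replicates 1, 2 and 3 called 0.0812%, 1.83% and 0.0461%. Ciita was also the 1 member called by DESeq2 (background 11.7%), by limma voom (7.21%), with DESeq2 size factors in edgeR (3.83%) or upper quartile scaling (3.6%), with no filter (2.87%), with a filter at 1 CPM (4.42%) and without mitochondrial genes (3.64%). No member was called with sex as a covariate (1.41%), with leukocyte markers as a covariate (0.0594%) or in females alone (0.0%). At an unadjusted p under 0.05 edgeR had 3 members, Ciita, H2-Ab1 and H2-Eb1, against 23.9% of all tested genes. Ciita shares exonic sequence with Dexi on the opposite strand, and whether the counting used strand is not given in the sources used here. Dexi stood at 8.20 to 11.8 CPM in CB-100 and 6.30 to 8.27 CPM in sham (log2 fold change 0.37 with SE 0.20, edgeR, adjusted p = 0.294). Its groups overlapped narrowly and its estimate had the same sign as that of Ciita. Whether reads of Dexi entered the counts of Ciita was not tested.

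**Figure D1:**
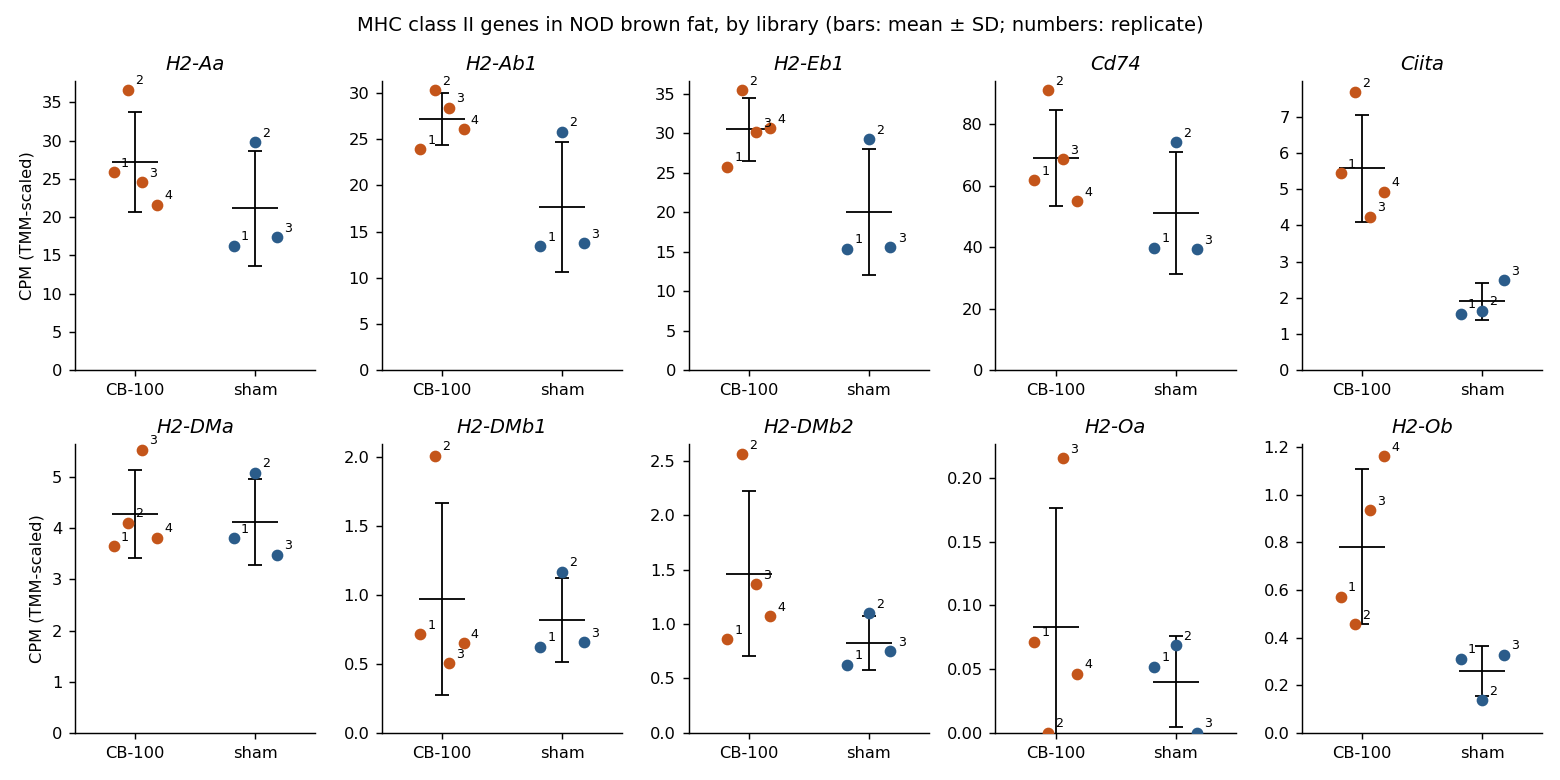
Level of each of the 10 class II genes in CPM (vertical axes from 0, a scale per gene), with a point per library numbered by replicate, CB-100 on the left and sham on the right, and bars for the mean ± SD (n = 4 and 3). The CB-100 points of Ciita, 4.24 to 7.67 CPM, and of H2-Ob, 0.457 to 1.16 CPM, lie above all sham points, while sham replicate 2 lies among the CB-100 points for H2-Aa, H2-Ab1, H2-Eb1 and Cd74.

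The chains that form the class II molecule and its invariant chain were highest in CB-100 replicate 2 and lowest in sham replicates 1 and 3, and sham replicate 2 lay among the CB-100 libraries. H2-Ab1, the beta chain of I-A on chromosome 17, 34257689 to 34269419, stood at 23.9, 30.3, 28.4 and 26.1 CPM in CB-100 replicates 1 to 4, against 13.4, 25.8 and 13.7 CPM in sham replicates 1 to 3. The means were 27.2 ± 2.79 CPM for CB-100 and 17.7 ± 7.08 CPM for sham (mean ± SD, n = 4 and 3), and sham replicate 2 stood well above the other sham libraries. The log2 fold change was 0.62 (SE 0.24, edgeR, adjusted p = 0.156).

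H2-Eb1 encodes the beta chain of I-E, which has no alpha partner in this strain. It lies at 34305867 to 34316674 of chromosome 17, and stood at 25.8, 35.4, 30.1 and 30.7 CPM in CB-100 replicates 1 to 4, against 15.4, 29.3 and 15.6 CPM in sham replicates 1 to 3. The groups overlapped through sham replicate 2, and the log2 change was 0.61 (SE 0.24, edgeR, adjusted p = 0.170). Without sham replicate 2 both beta chains passed the test, H2-Ab1 with a log2 change of 1.00 (edgeR, adjusted p = 0.0403) and H2-Eb1 with 0.98 (edgeR, adjusted p = 0.0431), where 1.83% of all tested genes were called. Nothing in the labels sets that library apart. In its RNA it also differed in Ucp1, at 875 CPM against 140 and 46.1 CPM in sham replicates 1 and 3. In Adipoq it did not stand apart, at 777 CPM against 484 and 808 CPM. Among sham libraries it had the highest summed macrophage markers (236 CPM against 206 and 171) and leukocyte markers (47.4 CPM against 37.0 and 31.5). Its B cell sum was also the highest, while its dendritic and T cell sums lay between those of sham replicates 1 and 3. CB-100 replicate 2 had the highest macrophage and leukocyte sums of all, 300 and 60.0 CPM. Their part in the level of the chains was not tested.

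H2-Aa, the alpha chain of I-A at 34282744 to 34287823 of chromosome 17, stood at 25.9, 36.6, 24.5 and 21.6 CPM in CB-100 replicates 1 to 4, against 16.2, 29.8 and 17.3 CPM in sham replicates 1 to 3. In all, 3 of the 4 CB-100 libraries were below sham replicate 2. The log2 fold change was 0.36 (SE 0.26, edgeR, adjusted p = 0.419).

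Cd74, the invariant chain, which lies on chromosome 18 away from the class II region, was again highest in CB-100 replicate 2. It stood at 61.8, 91.0, 68.6 and 55.0 CPM in CB-100 replicates 1 to 4, against 39.8, 74.1 and 39.3 CPM in sham replicates 1 to 3 (log2 fold change 0.44 with SE 0.26, edgeR, adjusted p = 0.345). Sham replicate 2 was second only to that library.

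H2-Ab1 and H2-Eb1 could not be fully separated in these counts. Both had counts more than 0.02 from a whole number in 5 of the 7 libraries, and in each library their counts added up to a whole number within 0.02, such as 694 in CB-100 replicate 1 and 553 in sham replicate 1. Reads were thus divided between the 2 genes by the authors' counting. With the 2 genes summed, which was chosen after seeing the data, the log2 change was 0.61 (edgeR, adjusted p = 0.160). The same held for H2-DMb1 and H2-DMb2, near-identical copies whose counts were more than 0.02 from a whole number in 4 of the 7 libraries and added up to whole numbers of 22 to 50 in CB-100 and 24 to 33 in sham.

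The genes that load peptide were lower in level than the chains and did not pass. H2-DMa, the alpha chain of the peptide exchanger, stood at 3.65, 4.11, 5.54 and 3.81 CPM in CB-100 replicates 1 to 4, against 3.80, 5.08 and 3.48 CPM in sham replicates 1 to 3. The groups overlapped throughout (log2 fold change 0.06 with SE 0.25, edgeR, adjusted p = 0.912). Its counts were more than 0.02 from a whole number in all 7 libraries and it overlaps Brd2 on the opposite strand, so its value is uncertain.

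H2-DMb2, a beta chain of the exchanger, stood at 0.859, 2.56, 1.37 and 1.07 CPM in CB-100 replicates 1 to 4, against 0.625, 1.10 and 0.752 CPM in sham replicates 1 to 3 (log2 fold change 0.81 with SE 0.46, edgeR, adjusted p = 0.312). Its copy H2-DMb1 ranged from 0.503 to 2.01 CPM in CB-100 and from 0.625 to 1.17 CPM in sham (log2 fold change 0.22 with SE 0.55, edgeR, adjusted p = 0.839), and without CB-100 replicate 2 its log2 change was -0.36. Summed before the test, H2-DMb1 and H2-DMb2 had a log2 fold change of 0.55 (edgeR, adjusted p = 0.481).

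The H2-O genes, known mainly from B cells, thymus and some dendritic cells, were near the limit of detection and were not tested. H2-Ob had 8, 5, 13 and 25 counts in CB-100 replicates 1 to 4, or 0.572, 0.457, 0.935 and 1.16 CPM, against 6, 2 and 7 counts in sham replicates 1 to 3, or 0.312, 0.137 and 0.329 CPM. Each CB-100 library was above each sham library, which was so for 11.1% of all tested genes, while 23.3% did not overlap in either direction. Of the 10 members 2 did so, Ciita and H2-Ob. With no filter on low counts its log2 change was 1.53 (SE 0.62, edgeR, adjusted p = 0.214). H2-Oa, which shares exonic sequence with BC051537 on the opposite strand, had 0 to 3 counts in the CB-100 libraries and 0 to 1 in the sham libraries, too few to compare.

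The remaining class II genes of the region were silent or nearly so. H2-Ea, the alpha chain of I-E, had 0 counts in all 7 libraries, which allows up to 3 counts in each for counting error only. H2-Eb2, a further beta chain gene, had 0 to 2 counts in CB-100 and 0 to 1 in sham.

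**Figure D2:**
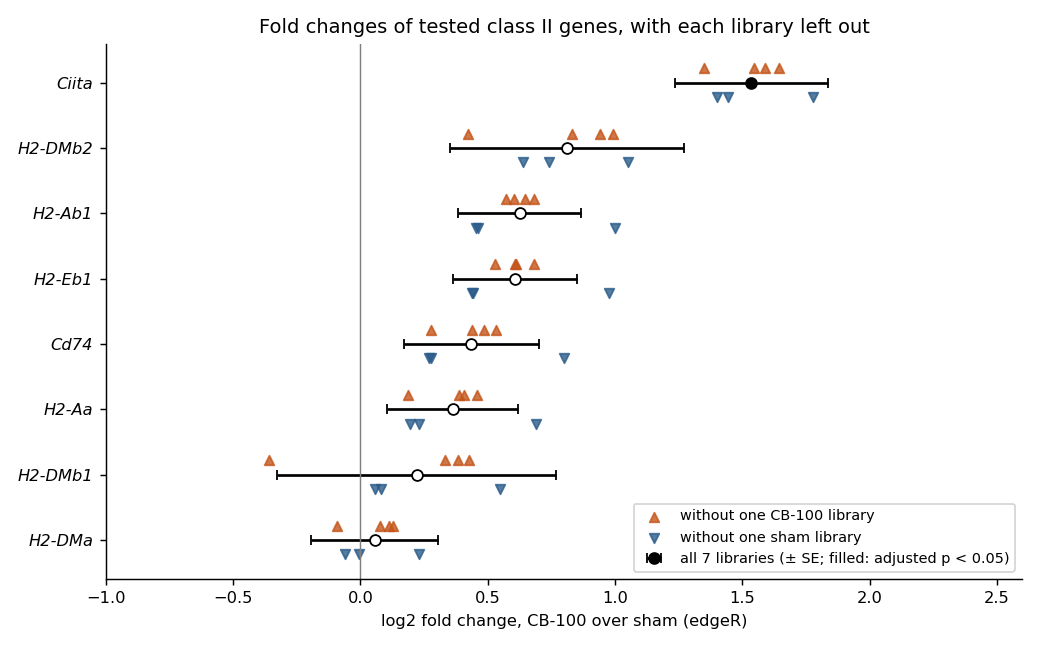
Log2 fold change of CB-100 over sham from edgeR for the 8 tested class II genes, as circles with bars of ± 1 SE (filled where the adjusted p was under 0.05), with triangles for the estimate when each library was left out. Ciita stayed between 1.35 and 1.78, while leaving out sham replicate 2 moved H2-Ab1, H2-Eb1, Cd74 and H2-Aa to their highest estimates, 1.00, 0.98, 0.80 and 0.69.

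Summed over the 10 genes, class II RNA was 149, 210, 164 and 145 CPM in CB-100 replicates 1 to 4, against 91.8, 168 and 93.7 CPM in sham replicates 1 to 3. The groups overlapped, with means of 167 ± 29.9 CPM for CB-100 and 118 ± 43.6 CPM for sham (mean ± SD, n = 4 and 3). H2-Aa, H2-Ab1, H2-Eb1 and Cd74 together made up 92.0% to 92.4% of the sum in CB-100 and 91.8% to 94.5% in sham.

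Per kilobase of exon, Cd74 was the most abundant of the 10, at 41.2 ± 9.30 CPM per kb for CB-100 and 30.4 ± 11.9 CPM per kb for sham (mean ± SD, n = 4 and 3). On this scale, over all annotated exons, H2-Eb1, H2-Ab1 and H2-Aa followed with 15.7, 10.6 and 7.15 CPM per kb in CB-100 and 10.3, 6.88 and 5.56 CPM per kb in sham. The order of these 3 depends on the length used: over the principal transcript alone it was H2-Aa, H2-Ab1 and H2-Eb1, with 24.1, 22.4 and 18.3 CPM per kb in CB-100 and 18.7, 14.6 and 12.02 CPM per kb in sham. Ciita stood at 0.584 ± 0.156 CPM per kb in CB-100 and 0.199 ± 0.0538 CPM per kb in sham over all exons, next to H2-DMb1 (0.577 and 0.486) and H2-DMb2 (0.837 and 0.473), from which it did not stand apart beyond the SD in CB-100.

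The proportions between the chains varied by pair. The ratio of Cd74 to H2-Aa in CPM was 2.39 to 2.80 in CB-100 and 2.27 to 2.49 in sham, and that of H2-Eb1 to H2-Ab1 was 1.06 to 1.18 in CB-100 and 1.13 to 1.14 in sham, the last between genes with divided reads. The ratio of H2-Eb1 to H2-Aa was wider, at 0.968 to 1.42 in CB-100 and 0.897 to 0.982 in sham. The ratio of H2-Ab1 to H2-Aa was 0.923, 0.828, 1.16 and 1.21 in CB-100 replicates 1 to 4, against 0.827, 0.866 and 0.791 in sham replicates 1 to 3, so that CB-100 replicates 3 and 4 stood above the other 5 libraries.

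Across the 7 libraries, which share their groups and library composition, log2 CPM of H2-Aa and Cd74 had a Pearson r of 0.981 and a Spearman rho of 0.929, and H2-Ab1 and H2-Eb1 had 0.994 and 0.964, the last pair with divided reads. Ciita went with the chains less closely, with an r of 0.558 to 0.661 and a rho of 0.464 to 0.714 against H2-Aa, H2-Ab1, H2-Eb1 and Cd74. These values are descriptions over 7 points.

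Set against Ciita, the chains were lower in 3 of the 4 CB-100 libraries than in any sham library. Summed CPM of H2-Aa, H2-Ab1, H2-Eb1 and Cd74 per CPM of Ciita was 25.3, 25.2, 35.8 and 27.1 in CB-100 replicates 1 to 4, against 54.3, 96.5 and 34.5 in sham replicates 1 to 3. CB-100 replicate 3 was just above sham replicate 3, the other male, and the remaining 3 CB-100 libraries were below all sham libraries. No test was made of this ratio.

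Ptprc, which encodes the leukocyte antigen CD45, was 13.6, 17.5, 14.2 and 13.2 CPM in CB-100 replicates 1 to 4, against 9.68, 11.7 and 8.93 CPM in sham replicates 1 to 3, with no overlap but no call (log2 fold change 0.53 with SE 0.17, edgeR, adjusted p = 0.108). Per CPM of Ptprc, the 4 genes of the chains came to 10.5 ± 0.452 for CB-100 and 10.7 ± 2.59 for sham (mean ± SD, n = 4 and 3). Ciita per CPM of Ptprc was 0.378 ± 0.0583 for CB-100 and 0.194 ± 0.0744 for sham (mean ± SD, n = 4 and 3), and the lowest CB-100 library, 0.300, was above the highest sham library, 0.279. Cd52, a surface protein of leukocytes, had a log2 fold change of 0.98 (edgeR, adjusted p = 0.269). Of the 7 leukocyte markers, 0 were called by any of the 3 tools, with 1 at an unadjusted p under 0.05 in edgeR. Their median log2 change was 0.18, with 5 estimates above 0 and 2 below. Summed, they overlapped between the groups, at 36.3 to 60.0 CPM in CB-100 and 31.5 to 47.4 CPM in sham. With the mean of 7 leukocyte markers in the model, the log2 change of Ciita was 1.47 (edgeR, adjusted p = 0.0883).

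**Figure D3:**
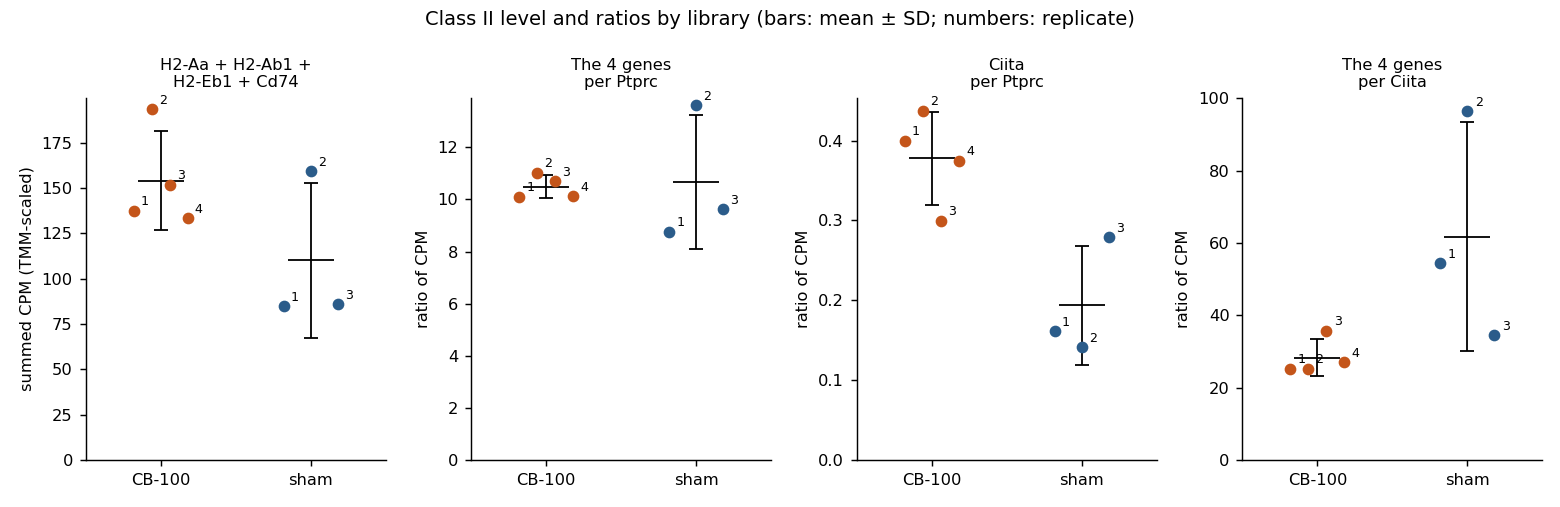
From left to right, summed CPM of H2-Aa, H2-Ab1, H2-Eb1 and Cd74, this sum per Ptprc, Ciita per Ptprc and the sum per Ciita, with a point per library, numbered by replicate, and bars for the mean ± SD (n = 4 CB-100, 3 sham; axes from 0). The sum per Ptprc averaged 10.5 in CB-100 and 10.7 in sham, while Ciita per Ptprc averaged 0.378 in CB-100 and 0.194 in sham without overlap.

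Some B cell markers separated the groups as Ciita and H2-Ob did. Of 13 measured, 4 had each CB-100 library above each sham library and none had the opposite, where 11.1% of all tested genes were higher without overlap and 23.3% did not overlap in either direction. Of the 5 tested, 0 passed by edgeR, with 2 at an unadjusted p under 0.05, and 1 passed by DESeq2 and by limma voom. The median log2 change of those 5 was 0.19, with Fcer2a and Cr2, receptors of mature B cells, at -0.13 and -0.16. Pax5, the factor that sets B cell identity, stood at 0.429, 0.731, 1.22 and 0.512 CPM in CB-100 replicates 1 to 4, against 0.0521, 0.206 and 0.235 CPM in sham replicates 1 to 3, and was too low to be tested.

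Ighm, the heavy chain of IgM, ranged from 7.98 to 13.3 CPM in CB-100 and from 1.93 to 5.29 CPM in sham, just outside the threshold by edgeR (log2 fold change 1.47 with SE 0.35, adjusted p = 0.0545) and called higher by DESeq2 (adjusted p = 0.00204) and limma voom (0.0287). Bank1, a B cell scaffold protein, had a log2 fold change of 1.12 (edgeR, adjusted p = 0.178), with overlap. The summed list was 15.0 to 20.8 CPM in CB-100 and 6.30 to 10.7 CPM in sham, of which Ighm made up 49.3% to 64.0% in CB-100 and 30.6% to 49.4% in sham. Without Ighm the sum was 6.58 to 8.20 CPM in CB-100 and 4.37 to 5.43 CPM in sham. Other B cell genes did not separate the groups: Cd79a, of the B cell receptor, was 0.503 to 0.913 CPM in CB-100 and 0.364 to 0.893 CPM in sham, and Ms4a1, which encodes CD20, was 0.0716 to 0.326 CPM in CB-100 and 0 to 0.206 CPM in sham. No B cell marker was at 0 in every library. Their part in the difference of Ciita was not tested.

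Markers of the other presenting cells overlapped between the groups. Dendritic cell markers summed to 55.2 to 80.4 CPM over 11 genes in CB-100 and 44.1 to 58.0 CPM in sham, with 0 of 5 tested called by any of the 3 tools, 1 at an unadjusted p under 0.05 in edgeR, and a median log2 change of 0.04. Most of that sum was Zbtb46, a factor of dendritic and endothelial cells (log2 change 0.50, edgeR, adjusted p = 0.167), and Itgae gave 0.98 (edgeR, adjusted p = 0.234). Macrophage markers summed over 12 genes to 146, 300, 173 and 145 CPM in CB-100 replicates 1 to 4. In sham replicates 1 to 3 they summed to 206, 236 and 171 CPM. Of the 11 tested, 0 were called by any of the 3 tools and 0 had an unadjusted p under 0.05 in edgeR, with a median of -0.17. Adgre1, which encodes the macrophage antigen F4/80, had a log2 fold change of 0.50 (edgeR, adjusted p = 0.327) and Cd68 gave -0.36 (edgeR, adjusted p = 0.398).

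T cell markers summed to 6.37 to 10.7 CPM over 11 genes in CB-100 and 5.78 to 13.2 CPM in sham, with 0 of 7 called by edgeR or limma voom, 1 by DESeq2 and 2 at an unadjusted p under 0.05 in edgeR, and a median of -0.19. Their estimates went both ways, with Trac, a T cell receptor constant region, at 2.32 (edgeR, adjusted p = 0.0678) and Cd3e, of the T cell receptor complex, at -1.38 (edgeR, adjusted p = 0.203). Trac was at 0.431 to 1.21 CPM in CB-100 and 0.0470 to 0.260 CPM in sham, without overlap, and was the gene called by DESeq2 (adjusted p = 0.0272). Its counts were 6 to 26 per CB-100 library and 1 to 5 per sham library, near the limit of detection. In the lymph node stroma list 1 of 4 tested genes fell, the B cell attractant Cxcl13, at 0.0930 to 0.863 CPM in CB-100 against 2.47 to 5.41 CPM in sham (log2 fold change -3.22 with SE 0.65, edgeR, adjusted p = 0.0381). This call was kept without CB-100 replicate 4 and lost without each of the other 6 libraries.

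**Figure D4:**
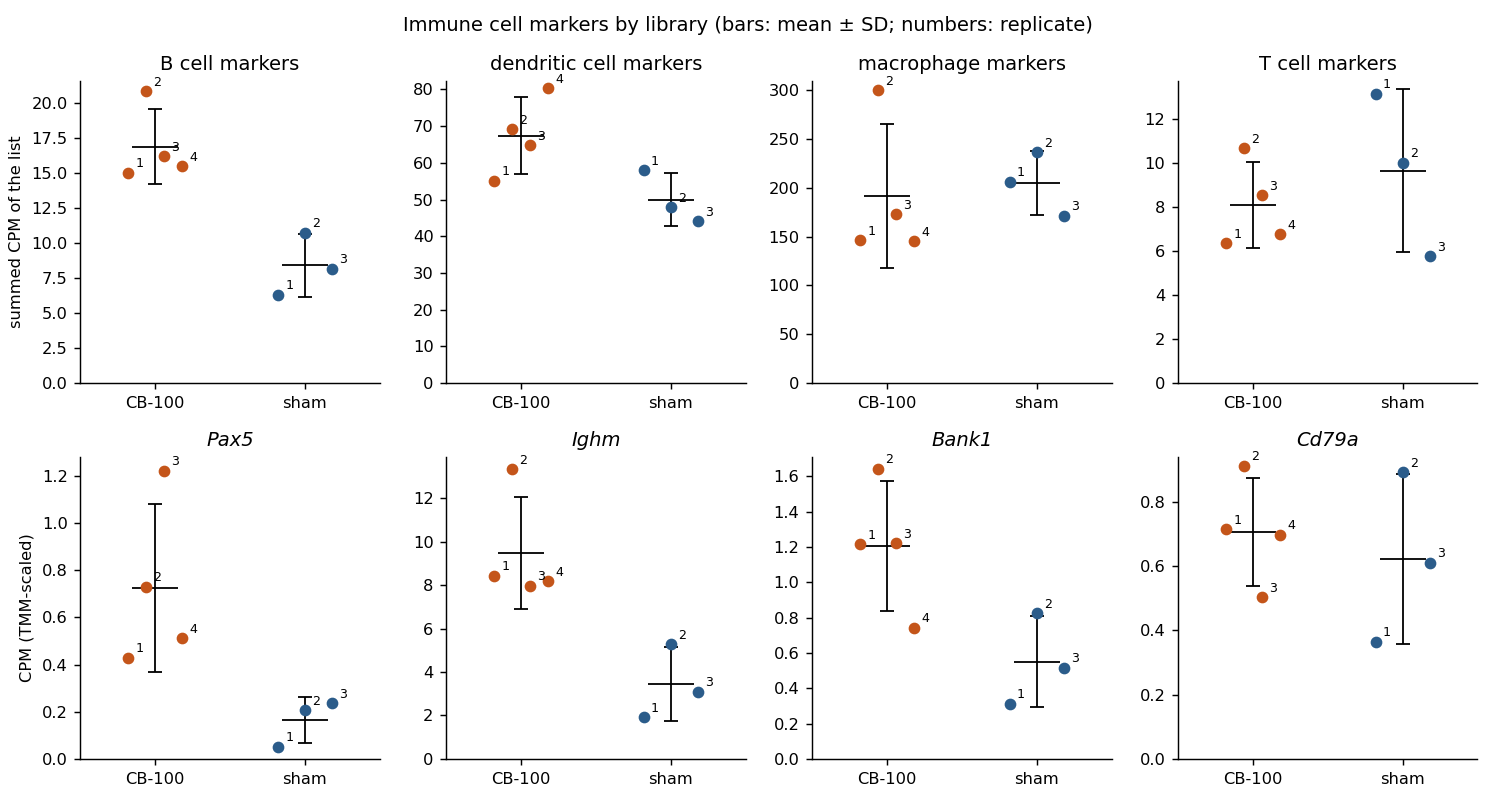
Upper row, summed CPM of the B cell, dendritic cell, macrophage and T cell marker lists; lower row, CPM of the B cell genes Pax5, Ighm, Bank1 and Cd79a, with a point per library, numbered by replicate, and bars for the mean ± SD (n = 4 CB-100, 3 sham; axes from 0). The B cell sum was 15.0 to 20.8 CPM in CB-100 and 6.30 to 10.7 CPM in sham, while the other 3 lists, Bank1 and Cd79a overlapped.

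Among 17 transcription factors that act on class II genes or their relatives, 1 rose, 0 fell and 16 did not pass by edgeR, with a median log2 change of -0.10. The gene that rose was Nlrc5, the transactivator of MHC class I genes and a relative of Ciita. It stood at 36.6, 43.5, 29.9 and 46.6 CPM in CB-100 replicates 1 to 4, against 14.5 to 20.5 CPM in the 3 sham libraries. No library of either group overlapped the other (log2 fold change 1.15 with SE 0.19, edgeR, adjusted p = 0.0278). Its call was lost without CB-100 replicate 1 or 2 or any 1 sham library, with an edgeR adjusted p of up to 0.128.

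The factors that hold the X and Y boxes gave no call by edgeR or limma voom, and 1 by DESeq2. Rfx5, a subunit of the complex on the X box, was 9.16 to 15.5 CPM in CB-100 and 17.0 to 22.9 CPM in sham (log2 fold change -0.67 with SE 0.20, edgeR, adjusted p = 0.0891), so its groups did not overlap and its estimate was opposite in sign to that of Ciita. DESeq2 called it lower (adjusted p = 0.0413). Its partners Rfxap and Rfxank gave -0.21 and -0.07, and the Y box factors Nfya, Nfyb and Nfyc gave 0.05, -0.11 and -0.28, none past the threshold by any of the 3 tools.

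Class I genes, which Nlrc5 controls, gave 1 call of 11 by edgeR and by DESeq2, Nlrc5 itself, with 4 at an unadjusted p under 0.05 in edgeR. Limma voom called 2, Nlrc5 higher and Erap1 lower. The median log2 change was 0.25, with 8 estimates above 0 and 3 below. Among those below, Erap1 gave -0.50 (edgeR, adjusted p = 0.0891) and Psmb10 gave -0.51 (edgeR, adjusted p = 0.156). The class I heavy chains H2-K1 and H2-D1 gave 0.54 (edgeR, adjusted p = 0.260) and 0.25 (edgeR, adjusted p = 0.546). Tap1 and Tap2, the peptide transporters that lie within the class II region, were above sham in each CB-100 library, at 15.1 to 24.2 CPM in CB-100 and 11.3 to 12.9 CPM in sham for Tap1 and at 57.6 to 81.4 CPM in CB-100 and 52.0 to 57.2 CPM in sham for Tap2. Neither passed (edgeR, adjusted p = 0.115 and 0.247). Of the 5 tested neighbours in the class II region 0 were called by any of the 3 tools, with 1 at an unadjusted p under 0.05 in edgeR and a median of 0.31.

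Interferon gamma is the best-known inducer of Ciita outside of professional presenting cells. Ifng had 0 counts in all 7 libraries, which allows up to 3 counts in each. Of 14 tested genes of the interferon gamma axis 0 rose and 1 fell by each of the 3 tools, Ifngr1, the ligand-binding chain of its receptor, at 57.0 to 70.0 CPM in CB-100 and 93.5 to 172 CPM in sham (log2 fold change -1.03 with SE 0.21, edgeR, adjusted p = 0.0364). The median of the list was 0.30. The call of Ifngr1 was kept without CB-100 replicate 4 or sham replicate 2 and lost without each of the other 5 libraries. Socs1, a feedback inhibitor of the pathway, was 0.503 to 1.00 CPM in CB-100 and 0.156 to 0.376 CPM in sham (log2 change 1.47, edgeR, adjusted p = 0.108), and Irf1 gave 0.30, neither past the threshold.

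Genes of antigen processing had mostly negative estimates. By edgeR 0 of the 11 tested passed, with 3 at an unadjusted p under 0.05, 7 of them lay below 0, and their median was -0.22 on the log2 scale. Ctsb, a lysosomal cysteine protease, was 561 to 609 CPM in CB-100 and 859 to 1321 CPM in sham (log2 fold change -0.84 with SE 0.21, edgeR, adjusted p = 0.0584), and Cst3, the cysteine protease inhibitor cystatin C, was 197 to 346 CPM in CB-100 and 402 to 650 CPM in sham (log2 fold change -0.91 with SE 0.24, edgeR, adjusted p = 0.0698). Neither overlapped between the groups, and both were called lower by DESeq2 (adjusted p = 0.000276 for Ctsb and 0.00635 for Cst3) and by limma voom (0.0285 and 0.0339). Ctss, the protease that trims the invariant chain in presenting cells, was 4.08 to 7.49 CPM in CB-100 and 5.12 to 9.68 CPM in sham (log2 change -0.54, edgeR, adjusted p = 0.288), opposite in sign to Cd74.

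Costimulators and class II receptors gave 0 calls of 8 by edgeR, with 1 at an unadjusted p under 0.05, and a median of 0.11. Cd274, which encodes the checkpoint ligand PD-L1, was 95.7, 50.4, 98.2 and 40.9 CPM in CB-100 replicates 1 to 4, against 17.6, 37.0 and 37.4 CPM in sham replicates 1 to 3, without overlap (log2 fold change 1.22 with SE 0.39, edgeR, adjusted p = 0.106). It was called higher by DESeq2 (adjusted p = 0.0194) and, just past the threshold, by limma voom (0.0499). Cd40, a costimulator of presenting cells, gave 1.07 (edgeR, adjusted p = 0.262). The class II receptors Cd4 and Lag3 gave -0.34 and 0.35.

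**Figure D5:**
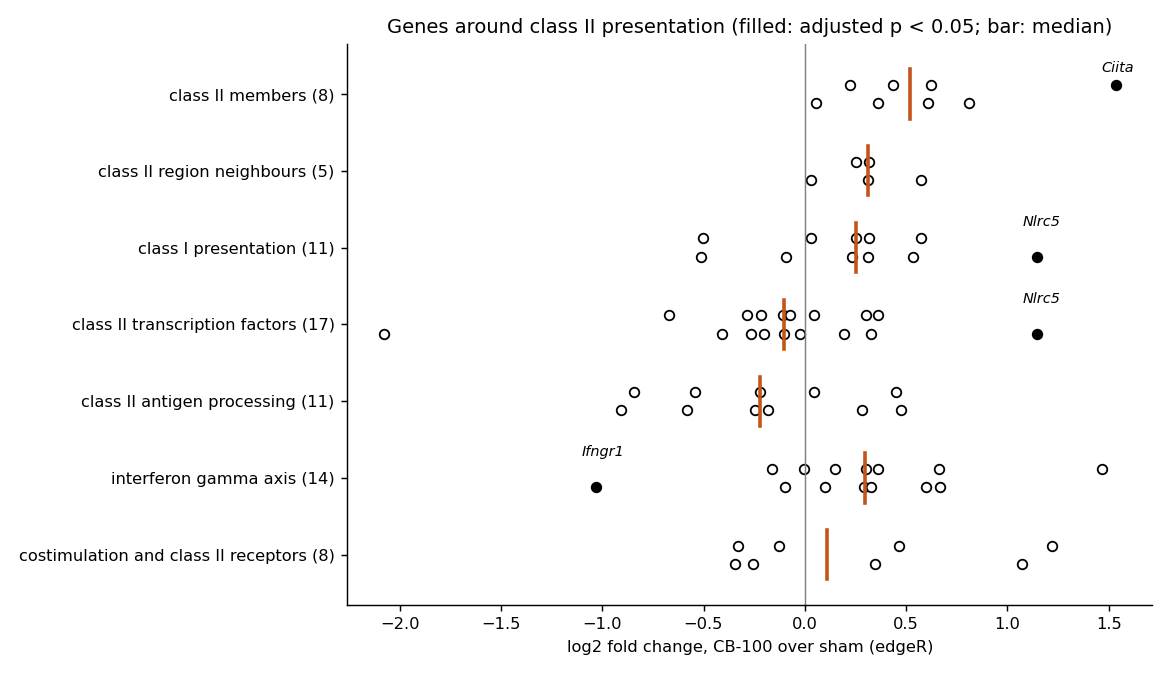
Log2 fold change of CB-100 over sham from edgeR for each tested gene of 7 lists, with the number of genes in brackets, filled circles for an adjusted p under 0.05 and bars for the median of each list. Ciita, Nlrc5 and Ifngr1 are the 3 genes called, and Nlrc5 is in 2 of the lists.

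The genes whose pattern across the 7 libraries was most like the mean log2 CPM of H2-Aa, H2-Ab1, H2-Eb1 and Cd74 were looked for among 12745 protein-coding genes. Pdgfra, the platelet-derived growth factor receptor of stromal cells and preadipocytes, came first with a Pearson r of 0.993 and a Spearman rho of 1.00. It stood at 35.7 to 47.9 CPM in CB-100 and 25.5 to 44.0 CPM in sham, with sham replicate 2 high as in the class II chains. Islr (r 0.986), Mxra8 (0.979), Fndc1 (0.970), Fam83a (0.965), Fam189b (0.964), G0s2 (0.964) and Mgl2 (0.964) followed. Their rho, in the same order, was 0.929, 0.893, 0.75, 0.679, 0.857, 0.893 and 1.00. These genes were picked as the highest of 12745 correlations over only 7 libraries. Mgl2 is a lectin of macrophages and dendritic cells, and G0s2 an inhibitor of adipose triglyceride lipase. Of the single chains, the nearest gene was Scara5 for H2-Aa (r 0.971), Ints1 for H2-Ab1 (0.993) and H2-Eb1 (0.981), and Pdgfra for Cd74 (0.990). The rho of these pairs was 0.857 to 0.964. Between the groups, 0 of these 10 genes passed by edgeR or limma voom, with 2 at an unadjusted p under 0.05 in edgeR, while DESeq2 called Fam83a (log2 fold change 2.23, adjusted p = 0.0246).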

How the data were processed

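Per the labels, reads were mapped by STAR (2.7.9a) to Ensembl's primary assembly of release 101. The authors deposited a single table of expected counts, with no scaling. The submitters' notes list featureCounts 2.0.3 (Subread), Salmon 1.5.2, limma and edgeR without saying what each did. The kit, and whether counting used strand, is not stated in these sources. NOD reads were thus counted on a reference of another strain, and the effect on the polymorphic H2 genes was not tested.

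Of 55774 lines, 287 exact repeats were removed. Expected counts were rounded to whole numbers, filtered by filterByExpr, scaled by TMM and tested with edgeR 4.0.16 (robust quasi-likelihood, R 4.3.3) on the group alone, two-sided, with Benjamini-Hochberg adjustment over 16823 genes. The TMM factors ran from 0.755 in CB-100 replicate 4 to 1.25 in sham replicate 1. Overlap between the groups for single genes was judged on this scale only, and by plain library totals it can differ. The SE is the log2 change over the square root of F. The coefficient of variation between replicates was 28%, and with 3 or 4 libraries a group their number limits precision. Gene models and lengths came from GENCODE M21 (GRCm38).

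The members, lists and tests were chosen with earlier results of these data known. Named are all members, H2-Ea, H2-Eb2, Adipoq and Ptprc, of each list up to 4 called genes with the largest change or else the 2 with the smallest p, and the most similar genes by Pearson correlation. Others (Dexi, Pax5, Cd79a, Ms4a1, Rfx5 and its partners, the Y box factors, Socs1, Irf1, Ctss, Fcer2a, Cr2, Cd4, Lag3, Ifng, H2-K1, H2-D1, Erap1, Psmb10, Brd2 and BC051537) were chosen after their values were seen. Alternatives included DESeq2 1.42.0 and limma 3.58.1 (voom). Some genes of the lists are not reported here.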

Additional observations from a re-analysis of the deposited data

Results flagged for a closer look

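H2-DMb1 in CB-100 replicate 2, at 2.01 CPM, stood far from the other 3 CB-100 libraries, which were at 0.503 to 0.716 CPM, with a gap to the nearest of 0.859 of the group's range. It rests on 21.75 counts that the authors divided between H2-DMb1 and H2-DMb2, and H2-DMb2 was also highest in that library, at 2.56 CPM. Of 17 measures checked in the 4 CB-100 libraries this was the only such gap, and chance flags about 1 in 20. The 3 sham libraries were too few to check.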

How the results depend on the processing

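Ciita kept its direction under all 17 alternatives and its call under 8 of them, among them DESeq2 (log2 change 1.53), limma voom (1.39) and the other scalings and filters. Its call was lost with sex as a covariate (1.55, edgeR adjusted p = 0.0563), with the leukocyte marker mean as a covariate (1.47, edgeR adjusted p = 0.0883) and in the 5 female libraries alone (1.89, edgeR adjusted p = 0.159), and without single libraries its log2 change was 1.35 to 1.78. The number of class II genes called was then 0 in each of these 3 fits, with 3, 3 and 1 genes at an unadjusted p under 0.05, and 0 to 2 without single libraries. Without single libraries H2-Ab1 was 0.45 to 1.00, H2-Eb1 0.44 to 0.98, H2-DMa -0.093 to 0.23 and H2-DMb1 -0.36 to 0.55. Estimates near 0 changed sign with the leukocyte covariate for H2-DMa (-0.016) and H2-DMb1 (-0.19), and in females for H2-DMa (-0.21). H2-Aa, Cd74 and H2-DMb2 kept their direction and stayed uncalled under every alternative run. The summed class II difference of 49.1 CPM was 30.7 CPM by plain library totals and 34.8 to 74.3 CPM without single libraries. Nlrc5, Ifngr1 and Cxcl13 each lost their call with the leukocyte covariate and in females alone, and Ifngr1 also with sex as a covariate. The cause of these losses was not tested. Over all genes edgeR called 622, against 1968 by DESeq2, 1213 by limma voom, 914 of 31875 with no filter, 238 with the sex covariate, 10 with the leukocyte covariate, 8 to 610 without single libraries, and 0 in females alone (2578 at an unadjusted p under 0.05). At 1 CPM in 3 libraries H2-DMb1 was not tested. No paired analysis was possible because replicates were numbered by accession and no animal code occurs in both groups.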
